A study of Caenorhabditis elegans with 24 samples.

Results

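The change in gene expression between adult days 4 and 11 was compared between wild-type and daf-2 mutant worms. For every gene the change from day 4 to day 11 in N2 was subtracted from the same change in daf-2, so that a negative value means a change with age that was lower in the mutant. All 16698 genes that passed a filter on low counts were tested, out of 46904 in the tables. The contrast rests on 12 of the series' 24 libraries, with 3 in each of 4 groups. These groups were N2 wild type at day 4, N2 at day 11, the strain CF1041 carrying daf-2(e1370) at day 4, and CF1041 at day 11. All were whole bodies of Caenorhabditis elegans fed OP50 bacteria. In both strains bleached embryos were kept for 16 h at 20 °C in buffer, and 50 µM FUDR, an inhibitor of DNA synthesis used to keep worms from producing progeny, was present from the last larval stage. The allele is carried by every cell of the animal, and FUDR was present in the controls as well. Nothing in the labels ties the 3 libraries of a group to separate cultures. The p-values below therefore describe only how these samples vary, which may be technical variation.

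The gene daf-2 encodes the insulin/IGF-1 receptor of the worm, and e1370 is a missense allele that lowers its function and is known for a long life. Less signalling through the receptor lets the FOXO transcription factor DAF-16 enter the nucleus. Insulin-like peptides are the ligands of the receptor, and some of them are themselves under the control of DAF-16. The intestine is a large somatic tissue of the worm and the main site of digestion, fat storage and yolk synthesis. It secretes cathepsins and other proteases, lysozymes and C-type lectins, and it is one of the tissues in which DAF-16 acts on lifespan.

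The libraries held between 20660999 and 32558491 expected counts and between 18235 and 20513 genes above 0. Ribosomal RNA took 4.36% to 12.65% of the counts, and the 4 libraries numbered 3 were at 7.92% to 12.65%. The daf-2 transcript stood at 183 to 225 CPM (counts scaled to a common library size) in N2 at day 4 and 217 to 327 CPM at day 11, and at 190 to 249 CPM and 204 to 293 CPM in the mutant. Its log2 difference between the strains was 0.17 ± 0.26 (SE, n = 3 and 3, adjusted p = 0.928 by edgeR) at day 4, and at day 11 it was -0.04 ± 0.26 (adjusted p = 0.988). A missense allele need not alter the amount of transcript, and the strain labels are therefore not checked by these levels. The DAF-16 targets sod-3, a superoxide dismutase, and mtl-1, a metallothionein, were higher in daf-2 at day 4 by log2 2.24 ± 0.31 (adjusted p = 0.000193) and 3.22 ± 0.54 (adjusted p = 0.00131). Neither gap changed with age beyond its error, with strain by age estimates of 0.04 ± 0.43 for sod-3 (adjusted p = 1) and 0.48 ± 0.70 for mtl-1 (adjusted p = 1).

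Much of the change with age was shared by the strains. In N2, 4947 genes passed between days 4 and 11 (2912 up and 2035 down, 29.6% of those tested) by edgeR's quasi-likelihood test at a false discovery rate of 0.05. In daf-2, 3390 passed (2006 up and 1384 down, or 8.29%, of a total of 20.3%), and with the replicate number as a block 6287 passed (3303 up and 2984 down). The same block gave 8143 in N2 (4445 up and 3698 down). Without the block the genes that passed in both numbered 2436, which is 49.2% of those in N2 and 71.9% of those in daf-2. Of these, 2427 moved in the same direction. Across the 16698 genes the changes in the strains had a Pearson r of 0.79, and of 0.83 over the 7882 genes at 10 CPM or more. The strains share no library in this comparison, but genes are not independent replicates. The up and down split depended on the scaling, since upper-quartile factors gave 3710 up and 1381 down in N2 and 2607 up and 857 down in daf-2, and library size alone gave 2214 up and 959 down in daf-2. The median change of all genes was 0.14 in N2 and 0.02 in daf-2, and 0.31 and 0.20 under upper-quartile factors. The N2 count was 3250 when N2 day 11 library 2 was left out and 3255 when N2 day 4 library 1 was. The daf-2 count was 2237 when daf-2 day 11 library 2 was left out and 2208 when daf-2 day 4 library 1 was.

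**Figure D1:**
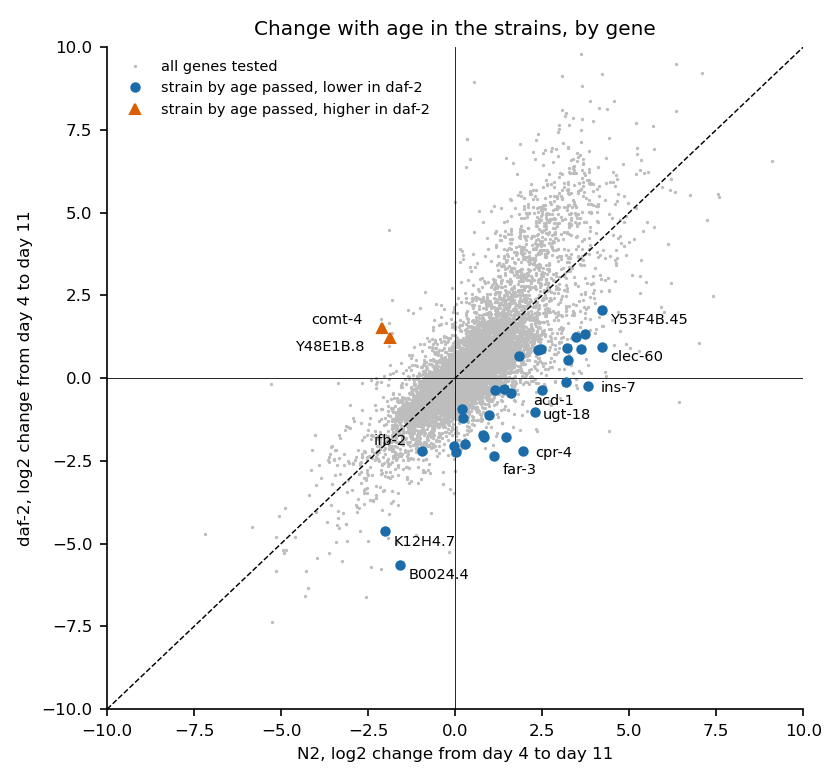
Change from day 4 to day 11 on the log2 scale in N2 (x axis) and in daf-2 (y axis), with 1 grey point per gene and the 33 genes whose strain by age contrast passed in blue (lower in daf-2) or orange (higher). The cloud follows the dashed line of equal change, and 31 of the 33 genes that passed lie below it.

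Several of the large changes with age were found in both strains. The invertebrate-type lysozyme gene ilys-3 rose by log2 9.09 ± 0.72 in N2 and 6.55 ± 0.68 in daf-2, and its strain by age estimate of -2.54 ± 1.04 did not pass (adjusted p = 0.654). The secreted SCP-domain gene scl-2 rose by 4.92 ± 0.62 and 3.72 ± 0.59. The cathepsin B gene cpr-2 rose by 4.12 ± 1.39 and 5.49 ± 1.39, though it was at 29.7 CPM in N2 day 11 library 2 against 3.25 and 2.53 CPM in the others. On the falling side, the yolk protein gene vit-3 changed by log2 -4.92 ± 0.63 in N2 and -5.27 ± 0.64 in daf-2, and vit-4 by -4.95 ± 0.56 and -5.18 ± 0.57. The gene pud-3 changed by -5.25 ± 1.08 and -7.36 ± 1.24. None of these 6 genes passed the strain by age test, and its standard errors ran from 0.67 to 1.81, so differences of several fold between the strains would not be detectable in them.

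The strain by age contrast passed for 33 genes (0.198% of those tested), of which 31 were lower in daf-2 (0.186%) and 2 were higher (0.012%). DESeq2's Wald test called 109 lower (0.739%) and 13 higher (0.0881%), and all 33 were among them. At an unadjusted p under 0.05, 769 genes were lower (4.61%) and 255 higher (1.53%), together 6.13%. The 33 estimates ran in size from 1.15 to 4.14 on the log2 scale, with standard errors of 0.22 to 0.75 and adjusted p of 0.0142 to 0.0495. The next gene had an adjusted p of 0.0515, and 75 genes were under 0.1. The median standard error over all genes was 0.43, against a median absolute change of 0.54 in N2 and 0.40 in daf-2. The median estimate of all genes was -0.026, and it lay between -0.026 and 0.026 under the 4 scalings tried. The count fell to 17 without N2 day 4 library 1, to 11 without N2 day 4 library 3, to 8 without daf-2 day 11 library 2 and to 4 without daf-2 day 4 library 2. Of the 33 genes, 17, 9, 8 and 4 stayed called in those fits, and none changed sign in any fit with 1 library left out.

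**Figure D2:**
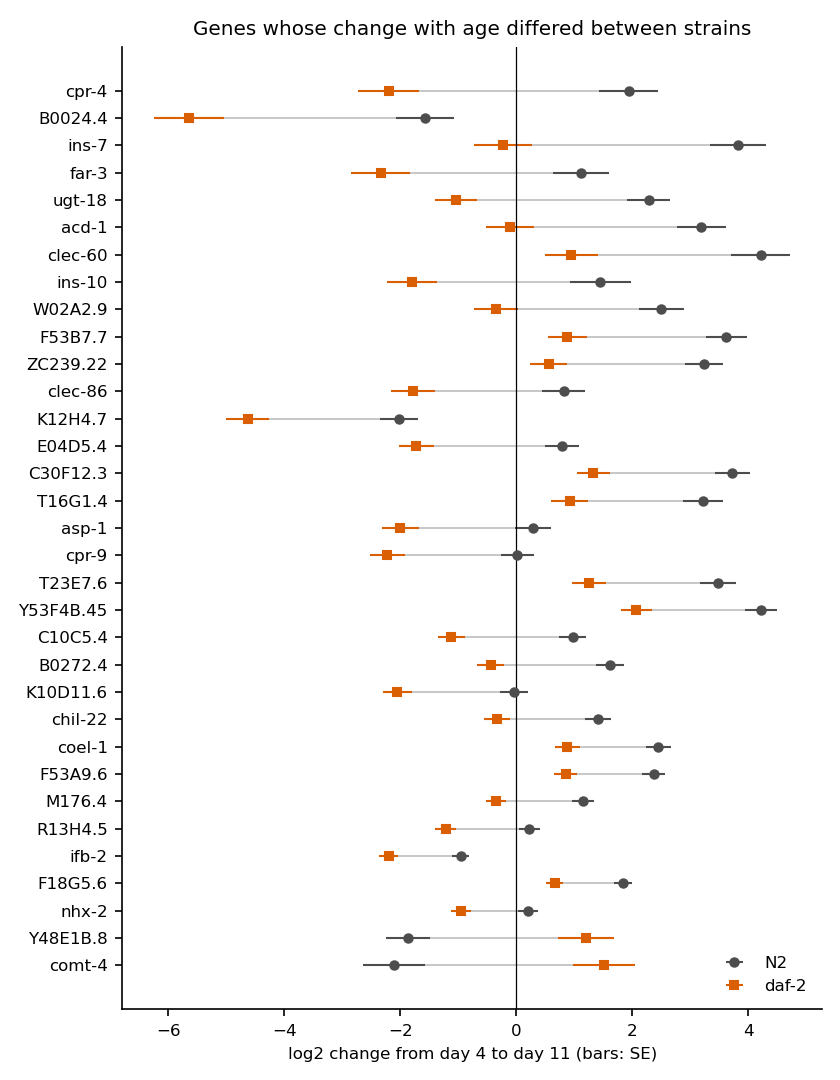
Log2 change from day 4 to day 11 in N2 (grey circles) and daf-2 (orange squares) for the 33 genes whose strain by age contrast passed, with bars of 1 SE and n = 3 libraries per strain and age. The daf-2 value lies to the left of the N2 value in 31 genes and to the right in Y48E1B.8 and comt-4. In the model without a replicate block, 9 of the 31 rose in N2 with no change that passed in daf-2.

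The 33 genes reached their contrast by different routes. Of the 31 lower genes, 9 rose in N2 while their change in daf-2 did not pass, 7 rose in both strains but less in daf-2, and 5 rose in N2 and fell in daf-2. These classes come from the model without a replicate block. With the block the daf-2 changes of F53B7.7 (upward) and M176.4 (downward), both among the 9, passed as well. Another 7 fell in daf-2 while their change in N2 did not pass, and 3 fell in both but further in daf-2. A change that passed in 1 strain only was common across the genome, in 2511 genes for N2 and 954 for daf-2, and the contrast itself passed for 10 and 7 of these. The strains differed at day 11 and not at day 4 in 27 of the 33 genes. Among all genes tested 655 were called at day 11 (282 or 1.69% higher and 373 or 2.23% lower in daf-2, 3.92% in all) and 323 at day 4 (261 or 1.56% higher and 62 or 0.371% lower, 1.93% in all). These totals count every gene called at an age, not those called at that age alone, so they are no like measure for the 27. With the replicate block the strains differed in 1609 genes at day 11 (774 higher and 835 lower) and 823 at day 4 (633 higher and 190 lower). Without daf-2 day 11 library 2 the count at day 11 was 380, and at day 4 it was 181 without N2 day 4 library 1 and 178 without daf-2 day 4 library 2. In 5 genes the strains differed at day 4 and not at day 11 (ugt-18, ins-10, T16G1.4, R13H4.5 and Y48E1B.8). Under the block 24 of the 33 differed at day 11 and not at day 4, 4 at day 4 and not at day 11, and 5 at both ages, B0024.4, chil-22, coel-1, T16G1.4 and comt-4 having gained a call. For 28 of the 31 lower genes all daf-2 day 11 libraries lay under all N2 day 11 libraries, an order found in 11.1% of all genes, while at day 4 the strains overlapped in 16 of the 31, against 84.0% of all genes. The 33 genes were chosen by a contrast of these same libraries, which favours such gaps. These counts describe the genes and are no separate support for them.

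Insulin-like peptides, the ligands of the receptor that the mutation alters, held 2 of the genes that passed. The gene ins-7 (WBGene00002090, chromosome IV, 9682011 to 9682845, minus strand, WBcel235) encodes an agonist of DAF-2 that is known to be repressed by DAF-16. In N2 it stood at 3.41, 5.51 and 4.37 CPM at day 4 and at 63.5, 55.8 and 68.2 CPM at day 11. In daf-2 it stood at 1.47, 1.88 and 1.44 CPM at day 4 and at 0.954, 0.236 and 2.97 CPM at day 11. Every N2 day 11 library was far above every other library of the contrast, and the daf-2 libraries of day 11 spread around those of day 4. The rise in N2 was 14.1-fold (log2 3.82 ± 0.49, adjusted p = 1.24e-05), the change in daf-2 was -0.23 ± 0.50 (adjusted p = 0.797), and the strain by age estimate was -4.05 ± 0.68 (adjusted p = 0.0142). At day 11 ins-7 was 45.8-fold lower in daf-2. Leaving out daf-2 day 11 library 3, the highest of its group, moved the estimate to -5.25, and the call was lost only without daf-2 day 4 library 2 among the fits with 1 library left out (adjusted p = 0.0521).

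The gene ins-10 (WBGene00002093, chromosome V, 14033949 to 14034396, plus strand) was a low transcript whose strain gap closed with age. It was at 0.152, 0.256 and 0.208 CPM in N2 at day 4 and at 0.439, 0.963 and 0.357 CPM at day 11, which rests on 18 and 50 counts over the 3 libraries. In daf-2 it fell from 3.74, 2.94 and 2.54 CPM to 0.795, 0.884 and 0.965 CPM. The strains were apart in every library at day 4 and overlapped at day 11. Its strain by age estimate was -3.25 ± 0.67 (adjusted p = 0.0458), and the call held in 1 of the 12 fits with 1 library left out. The gene overlaps vps-39 on the other strand.

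Other members of the family also had estimates below 0. Of 27 insulin-like peptide genes tested, 25 had an estimate below 0, against 52.4% of all genes. At an unadjusted p under 0.05, 5 were lower (18.5%, against 4.61% of all genes). The median estimate was -0.46. Such a shift was not particular to this family, since 88.0% of 25 neuron markers and 81.8% of 88 neuropeptide genes were also below 0. Of the 62 gene lists, 39 had a median below 0. Levels in the family were low, with the 17.5 CPM of ins-7 as the highest mean. In N2 9 members rose and 1 fell (median 0.46), and in daf-2 4 rose and 2 fell (median -0.39). Chosen after their values were seen, ins-22 had -1.78 ± 0.40 and ins-8 -7.14 ± 1.58 (both adjusted p = 0.0739), and DESeq2 called both. A list of 18 signalling core genes held daf-2 and daf-16, and also genes that do not lie between them, such as pqm-1. None of the 18 passed by edgeR, 2 were lower at an unadjusted p under 0.05, and DESeq2 called 1, sgk-1. The gene daf-16 itself had an estimate of -0.12 ± 0.51 (adjusted p = 1). The serine/threonine kinase gene sgk-1 stood at -1.15 ± 0.29 (adjusted p = 0.141) and pqm-1, a zinc finger factor that works in opposition to DAF-16, at -1.13 ± 0.37 (adjusted p = 0.373).

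**Figure D3:**
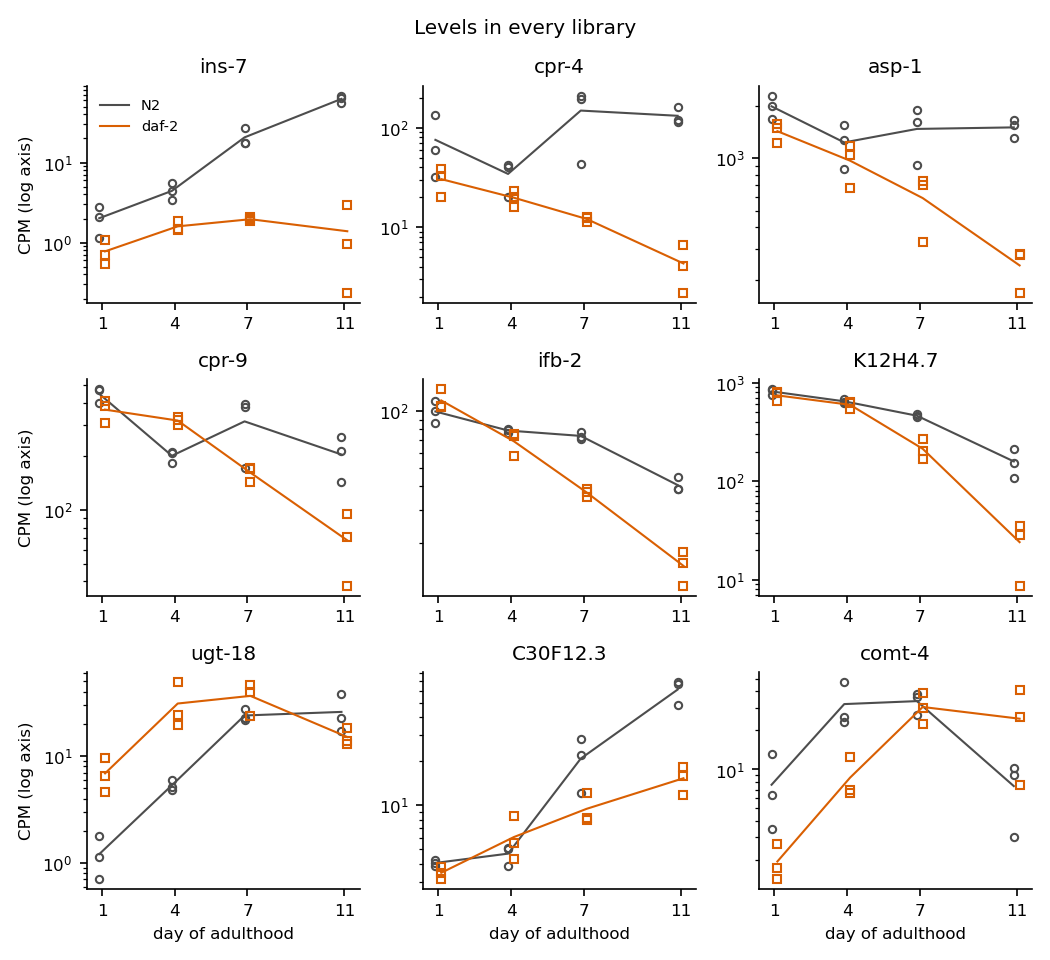
CPM on a log axis in every library at adult days 1, 4, 7 and 11 for 9 genes, with N2 in grey circles and daf-2 in orange squares, 3 libraries per strain and age, and lines through the means. In ins-7 the N2 libraries climb to between 55.8 and 68.2 CPM at day 11 while daf-2 stays at or under 2.97, in asp-1 and cpr-9 the daf-2 libraries of day 11 lie under those of N2, and in comt-4 the strains change order.

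The gene cpr-4 (WBGene00000784, chromosome V, 6614674 to 6615851, plus strand) encodes a cathepsin B-like cysteine protease. It was at 40.6, 42.1 and 20.0 CPM in N2 at day 4 and at 161, 120 and 114 CPM at day 11. In the mutant it was at 23.2, 16.0 and 20.0 CPM at day 4 and at 6.65, 2.18 and 4.07 CPM at day 11. The strains overlapped at day 4, and at day 11 every N2 library was above every daf-2 library. In N2 the level went up 3.84-fold (log2 1.94 ± 0.51, adjusted p = 0.00729) and in daf-2 it went down 4.59-fold (-2.2 ± 0.53, adjusted p = 0.00505), which gave the lowest estimate among the genes that passed (-4.14 ± 0.73, adjusted p = 0.0154).

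The gene cpr-9 (WBGene00010204, chromosome V, 12003053 to 12004584, plus strand), another cathepsin B-like protease, was held in N2 and lost in daf-2. It was at 212, 209 and 184 CPM in N2 at day 4 and at 214, 144 and 257 CPM at day 11. In daf-2 it went from 332, 320 and 300 CPM to 94.8, 37.7 and 71.1 CPM. The daf-2 libraries were above N2 at day 4 and below N2 at day 11, with no overlap at either age. The N2 change was 0.02 ± 0.28 (adjusted p = 0.958), the daf-2 change -2.22 ± 0.30 (adjusted p = 3.38e-05), and the contrast -2.25 ± 0.41 (adjusted p = 0.016). Over the 8 cathepsin B genes tested, 2 passed lower and 4 were lower at an unadjusted p under 0.05, and the median estimate was -1.48. Of all genes 0.186% passed lower and 4.61% were lower at that unadjusted p. The changes with age passed upward in 4 and downward in 2 of the 8 in N2, and upward in 1 and downward in 5 in daf-2. Of all genes 17.4% rose and 12.2% fell in N2, and 12% rose and 8.29% fell in daf-2. Their summed level was 674 to 937 CPM in N2 at day 4 and 659 to 949 CPM at day 11, and in daf-2 it was 942 to 1091 CPM and 342 to 424 CPM.

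The intestinal aspartic protease gene asp-1 (WBGene00000214, chromosome V, 19049562 to 19050752, minus strand), a cathepsin D-like enzyme, followed the same course as cpr-9. In N2 it was at 1566, 1276 and 868 CPM at day 4 and at 1308, 1567 and 1655 CPM at day 11. The daf-2 levels were 1180, 1053 and 679 CPM at day 4 and 280, 168 and 277 CPM at day 11. The strains overlapped at day 4, and the daf-2 day 11 libraries were under all others. Its change was 0.29 ± 0.31 in N2 (adjusted p = 0.499) and -2.0 ± 0.32 in daf-2 (adjusted p = 0.000187), and the contrast was -2.29 ± 0.44 (adjusted p = 0.0252). The call for asp-1 held in 5 of the 12 fits with 1 library left out. Of 12 aspartic protease genes, asp-1 alone passed by edgeR and by DESeq2, and the median estimate was -0.38. At an unadjusted p under 0.05, 4 were lower (33.3%, against 4.61% of all genes). In N2 1 rose and 6 fell (median -0.62), and in daf-2 none rose and 7 fell (median -1.58).

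The gene K12H4.7 (WBGene00019682, chromosome III, 8048450 to 8051081, minus strand), a putative serine protease, fell in both strains. In N2 it went from 640, 681 and 615 CPM to 109, 153 and 214 CPM. In daf-2 it went from 629, 621 and 535 CPM to 35.0, 8.66 and 28.7 CPM. The strains overlapped at day 4 and were apart at day 11. The fall was 4.06-fold in N2 (adjusted p = 0.000142) and 24.7-fold in daf-2 (adjusted p = 1.55e-07), with a contrast of -2.60 ± 0.45 (adjusted p = 0.0146). The gene overlaps K12H4.2 on the other strand.

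Among 20 intestine markers, a list that also holds asp-1, asp-3, cpr-1 and cpr-6, 3 passed lower (asp-1, ifb-2 and nhx-2), none passed higher, and 7 were lower at an unadjusted p under 0.05 (35.0%). Of all genes 0.186% passed lower and 4.61% were lower at that unadjusted p. The median estimate was -0.49, and 18 of the 20 were below 0, against 52.4% of all genes. In N2 2 markers rose and 8 fell (median -0.26), and in daf-2 none rose and 11 fell (median -1.21). Of all genes 12.2% fell in N2 and 8.29% in daf-2. The summed level of the markers was 3279 to 4260 CPM in N2 and 3431 to 4467 CPM in daf-2 at day 4. At day 11 it was 2840 to 3128 CPM in N2 and 1226 to 1647 CPM in daf-2. Much of this gap came from asp-1 alone, at 1308 to 1655 CPM in N2 and 168 to 280 CPM in daf-2 at day 11. In whole worms, fewer cells of a type and less RNA per cell cannot be told apart. The part of the intestinal share in the protease results was not tested. Markers differed among themselves, since the intestinal transcription factor gene elt-2 had -0.26 ± 0.27 (adjusted p = 1), the ezrin-like gene erm-1 -0.12 ± 0.23 (adjusted p = 1) and the esterase gene ges-1 -0.35 ± 0.38 (adjusted p = 1), values taken after they were seen.

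The gene ifb-2 (WBGene00002054, chromosome II, 5750188 to 5754140, plus strand) encodes an intermediate filament protein of the intestine. It was at 79.6, 80.3 and 76.9 CPM in N2 at day 4 and at 38.6, 38.5 and 44.5 CPM at day 11. In daf-2 it was at 74.0, 75.5 and 58.1 CPM and then at 17.8, 11.8 and 15.7 CPM. At both ages every daf-2 library was under every N2 library, by little at day 4 and by more than the spread at day 11. The contrast was -1.24 ± 0.22 (adjusted p = 0.0149). The gene nhx-2 (WBGene00003730, chromosome II, 7690711 to 7693957, minus strand), an intestinal sodium/proton exchanger, was at 22.4, 24.5 and 27 CPM in N2 at day 4 and at 25.3, 28.9 and 30.8 CPM at day 11. In daf-2 it went from 21.3, 24.4 and 20.7 CPM to 10.9, 11.5 and 12 CPM, and its contrast was -1.15 ± 0.24 (adjusted p = 0.0448). The call for nhx-2 was lost in all 12 fits with 1 library left out (log2 -1.23 to -1.08).

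**Figure D4:**
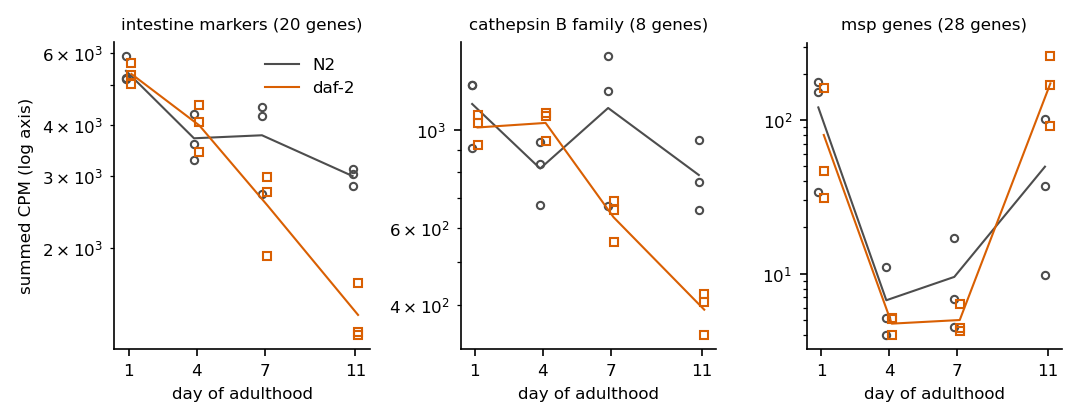
Summed CPM on a log axis in every library at adult days 1, 4, 7 and 11 for 20 intestine markers, 8 cathepsin B genes and 28 major sperm protein (msp) genes, with N2 in grey circles, daf-2 in orange squares and lines through the means. At day 11 the daf-2 libraries lie under all N2 libraries for the intestine markers (1226 to 1647 against 2840 to 3128) and the cathepsins (342 to 424 against 659 to 949), while the msp sums of N2 day 11 spread from 9.83 to 102. The marker sums include asp-1, at 1308 to 1655 CPM in N2 and 168 to 280 CPM in daf-2 at day 11.

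Genes of defence and of surface recognition included 2 C-type lectins. The gene clec-60 (WBGene00014046, chromosome II, 10480043 to 10481874, minus strand), known for its induction by Staphylococcus aureus, was at 0.607, 0.672 and 0.416 CPM in N2 at day 4 and at 11.2, 5.86 and 14.6 CPM at day 11. In the mutant it was at 0.960, 1.41 and 0.961 CPM at day 4 and at 2.54, 1.21 and 2.75 CPM at day 11. It rose 18.5-fold in N2 (adjusted p = 7.3e-06), its change in daf-2 did not pass (log2 0.95 ± 0.46, adjusted p = 0.164), and the contrast was -3.26 ± 0.67 (adjusted p = 0.0448). At day 11 the strains did not overlap, and the gene overlaps another on its own strand. The gene clec-86 (WBGene00016912, chromosome X, 7139875 to 7140566, plus strand) fell in daf-2, from 9.50, 12.2 and 3.67 CPM in daf-2 at day 4 to 1.97, 2.15 and 3.25 CPM at day 11. In N2 it was at 4.13, 5.25 and 2.60 CPM and then at 6.64, 4.44 and 10 CPM, and the contrast was -2.60 ± 0.53 (adjusted p = 0.0441). The call held in 1 of the 12 fits with 1 library left out for clec-60 and in 4 for clec-86.

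Over the 142 C-type lectin genes tested, 24 were lower (16.9%) and 5 higher at an unadjusted p under 0.05, against 4.61% and 1.53% of all genes, and DESeq2 called 8 lower. Their median estimate was -0.52. In N2 33 rose and 27 fell, and in daf-2 20 rose and 42 fell. The lysozymes held 7 of 13 genes lower at an unadjusted p under 0.05 with a median of -1.42, and none passed by edgeR. DESeq2 called 1 of them, lys-10 (-5.93 ± 1.62, adjusted p = 0.193 by edgeR). That gene was near the floor, with a mean of 0.947 CPM over the 12 libraries. Among 25 saposin-like genes 9 were lower and 1 higher at the same unadjusted p (median -0.89), none passed by edgeR, and DESeq2 called 1 lower. The lysozyme gene lys-7 rose in N2 from 463, 773 and 236 CPM to 3163, 2363 and 1530 CPM. The daf-2 levels were 1655, 1846 and 969 CPM and then 5431, 1822 and 2720 CPM, and its contrast of -1.1 ± 0.73 did not pass (adjusted p = 0.932). Its daf-2 change of log2 1.16 (adjusted p = 0.131) passed under the block at 1.23 ± 0.36 (adjusted p = 0.0116).

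Lipid and small molecule handling was represented by far-3 and ugt-18. The gene far-3 (WBGene00001387, chromosome V, 12996787 to 12997522, minus strand) encodes a fatty acid and retinol binding protein. It was at 90.3, 113 and 51.7 CPM in N2 at day 4 and at 239, 62.7 and 250 CPM at day 11, where library 2 was within the range of day 4. In daf-2 it went from 173, 181 and 182 CPM to 44.8, 23.3 and 38.1 CPM. The contrast was -3.45 ± 0.69 (adjusted p = 0.0386), the call held in 2 of the 12 fits with 1 library left out, and the gene overlaps far-5 on the other strand. The gene ugt-18 (WBGene00013900, chromosome V, 12820260 to 12822778, plus strand), a UDP-glucuronosyltransferase, rose in N2 from 5.19, 5.95 and 4.86 CPM to 17.2, 22.5 and 38.1 CPM. In daf-2 it fell from 24.4, 49.1 and 19.7 CPM to 13.7, 13.1 and 18.5 CPM. At day 4 every daf-2 library was above every N2 library (log2 difference 2.54 ± 0.38, adjusted p = 0.000353), and at day 11 the strains overlapped (-0.78 ± 0.36, adjusted p = 0.284). The contrast was -3.32 ± 0.52 (adjusted p = 0.0142), and it held in all 12 fits with 1 library left out. None of the other 64 UDP-glucuronosyltransferase genes and none of the other 16 fatty acid and retinol or lipid binding genes passed by edgeR or by DESeq2. At an unadjusted p under 0.05 the lists held 3 and 4 lower genes with ugt-18 and far-3 among them. These were 4.62% and 23.5% of the lists, against 4.61% of all genes.

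Further genes rose in N2 with little or no rise in daf-2. The gene acd-1 (WBGene00016064, chromosome I, 4103698 to 4108167, plus strand), an acid-sensitive sodium channel of glia, rose from 0.720, 1.63 and 1.49 CPM to 8.72, 15.5 and 11.2 CPM in N2. In daf-2 it was at 1.87, 1.91 and 1.1 CPM at day 4 and at 1.78, 1.18 and 1.54 CPM at day 11. Each N2 day 11 library was above all the others, and the contrast was -3.31 ± 0.58 (adjusted p = 0.0146). The gene ZC239.22 rose 9.41-fold in N2 (adjusted p = 1.23e-06), from 3.83, 4.61 and 4.41 CPM to 37.9, 39.1 and 44.1 CPM. It stood in daf-2 at 3.89, 2.1 and 2.51 CPM and then at 4.10, 2.92 and 5.43 CPM, with a contrast of -2.67 ± 0.45 (adjusted p = 0.0142). The same pattern was seen in F53B7.7 (-2.74 ± 0.47), W02A2.9 (-2.85 ± 0.54), B0272.4 (-2.05 ± 0.33), M176.4 (-1.50 ± 0.26) and the chitinase-like gene chil-22 (-1.74 ± 0.32), which rose in N2, by 2.22-fold in M176.4 and 5.66-fold in W02A2.9. With the replicate block the daf-2 change of F53B7.7 also passed upward (log2 0.91 ± 0.29, adjusted p = 0.0194) and that of M176.4 downward (-0.34 ± 0.13, adjusted p = 0.047). The estimate for W02A2.9 was -3.44 without N2 day 4 library 2.

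In 7 genes the rise was present in both strains and smaller in daf-2. The gene C30F12.3 (WBGene00016262, chromosome I, 6970363 to 6971888, minus strand) rose in N2 from 3.83, 5.15 and 5.06 CPM to 69.1, 67.1 and 48.7 CPM. In daf-2 it rose from 5.51, 8.39 and 4.32 CPM to 11.8, 18.3 and 15.8 CPM. The strains overlapped at day 4 and were apart at day 11, and the rises of 13.1-fold and 2.51-fold gave a contrast of -2.39 ± 0.39 (adjusted p = 0.0142). The only non-coding gene that passed was Y53F4B.45 (WBGene00044728, chromosome II, 15042805 to 15044011, minus strand), which rose from 8.57, 8.90 and 8.64 CPM to 145, 220 and 122 CPM in N2. In daf-2 it rose from 14.4, 12.9 and 9.13 CPM to 40.2, 69.4 and 43.5 CPM (contrast -2.15 ± 0.36, adjusted p = 0.0142). It overlaps trip-4 on the other strand. The tubulin cofactor E-like gene coel-1 rose 5.47-fold and 1.84-fold (contrast -1.57 ± 0.30, adjusted p = 0.0239). The others were T23E7.6 (-2.23 ± 0.41), T16G1.4 (-2.29 ± 0.46), F53A9.6 (-1.53 ± 0.28) and F18G5.6 (-1.18 ± 0.22).

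Genes that passed in both strains in opposite directions numbered 9, and the contrast itself passed for 6 of them. Beside cpr-4, ugt-18 and ins-10 these were C10C5.4, E04D5.4 and comt-4. The gene C10C5.4 (WBGene00007508, chromosome IV, 9378552 to 9380452, plus strand), of the aminoacylase family, was at 16.5, 12.2 and 15.9 CPM in N2 at day 4 and at 32.0, 29.2 and 25.9 CPM at day 11. In daf-2 it went from 10.7, 9.45 and 12.1 CPM to 5.28, 3.42 and 6.18 CPM. Within each strain the ages did not overlap, and the contrast of -2.08 ± 0.33 (adjusted p = 0.0142) held in all 12 fits with 1 library left out. The gene E04D5.4 rose 1.72-fold in N2 (adjusted p = 0.0453) and fell 3.30-fold in daf-2 (adjusted p = 0.000496), with a contrast of -2.51 ± 0.42. All 6 kept both signs under RLE, upper-quartile and library size scaling. The other 3 genes, nlt-1, F32H5.1 and tre-3, had contrasts with adjusted p of 0.0674, 0.0739 and 0.105.

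Among the 33 genes, B0024.4 (WBGene00007097, chromosome V, 10297399 to 10298985, plus strand) had the largest fall in daf-2. It was at 122, 109 and 53 CPM in daf-2 at day 4 and at 1.65, 1.33 and 2.72 CPM at day 11, a 49.9-fold fall (adjusted p = 2.86e-06). In N2 it went from 17.8, 45.5 and 26.8 CPM to 9.66, 9.42 and 11.1 CPM. The daf-2 libraries were above all N2 libraries at day 4 and below all of them at day 11, with a contrast of -4.06 ± 0.73 (adjusted p = 0.016). The gene K10D11.6 fell 4.14-fold in daf-2 (contrast -2.01 ± 0.35, adjusted p = 0.0146) and R13H4.5 fell 2.34-fold (contrast -1.44 ± 0.26, adjusted p = 0.016). Neither changed in N2 by a difference that passed (adjusted p = 0.91 and 0.382).

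By edgeR at a false discovery rate of 0.05 the change with age was higher in daf-2 for comt-4 and Y48E1B.8, while DESeq2 called 13 genes higher and the replicate block 23. The gene comt-4 (WBGene00021491, chromosome V, 2049217 to 2050185, minus strand), of the catechol-O-methyltransferase family, fell in N2 from 25.5, 47.1 and 23.3 CPM to 2.99, 9.13 and 10.2 CPM. In the mutant it was at 6.57, 6.95 and 12.4 CPM at day 4 and at 40.9, 7.54 and 25.5 CPM at day 11, where library 2 stayed within the range of day 4. Its contrast was 3.61 ± 0.75 (adjusted p = 0.0495), and with the replicate block the strains differed at day 4 (log2 -1.98 ± 0.49, adjusted p = 0.0214) and at day 11 (1.84 ± 0.50, adjusted p = 0.0237). The gene Y48E1B.8 (WBGene00013007, chromosome II, 13585705 to 13589038, plus strand) fell in N2 from 5.69, 2.08 and 8.01 CPM to 1.29, 1.72 and 1.34 CPM. The daf-2 levels were 0.455, 0.250 and 0.343 CPM and then 0.954, 0.825 and 0.572 CPM, on 27 and 74 counts, and the contrast was 3.07 ± 0.61 (adjusted p = 0.0386). Each call held in 2 of the 12 fits with 1 library left out, and both genes overlap a gene on the other strand.

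**Figure D5:**
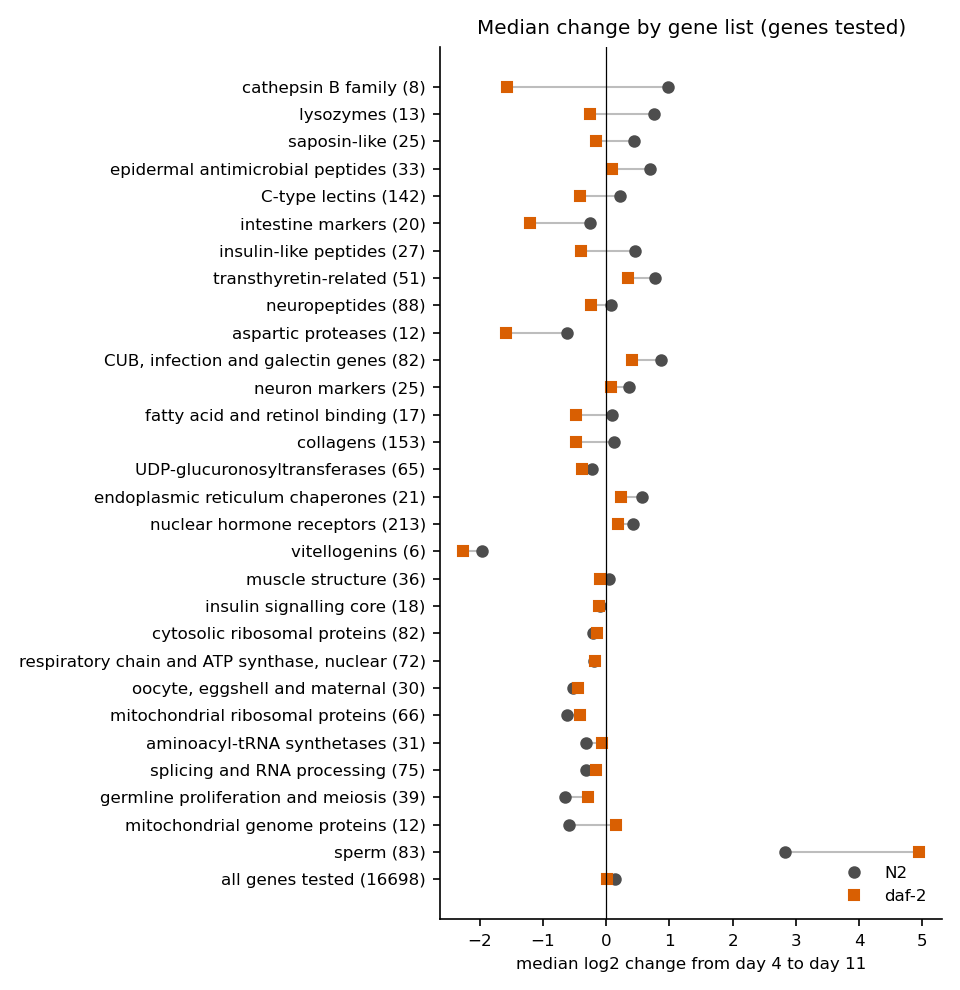
Median log2 change from day 4 to day 11 over the tested genes of 29 lists and of all genes, in N2 (grey circles) and daf-2 (orange squares), with the number of genes in brackets. The medians of the strains are far apart in the cathepsin B family (0.98 in N2, -1.57 in daf-2) and in the sperm genes (2.83 and 4.95), while cytosolic ribosomal proteins (-0.20 and -0.15) sit together. No sperm gene passed the strain by age test by edgeR or DESeq2.

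Of 62 lists of genes, 53 had no member that passed by edgeR. DESeq2 called a member in 11 of these 53, and 40 of them held a gene at an unadjusted p under 0.05. The 82 cytosolic ribosomal protein genes had a median estimate of 0.04 with no member under an unadjusted p of 0.05 by edgeR and none called by DESeq2. The 66 mitochondrial ribosomal protein genes had a median of 0.17, and 45 of them fell in N2 and 18 in daf-2, both without the replicate block. With the block 47 fell in daf-2, a count not comparable with the 45. Over all genes the block raised the downward calls from 2035 to 3698 in N2 and from 1384 to 2984 in daf-2. The 36 muscle structure genes had a median of -0.14 and the 25 neuron markers -0.38, with 0 and 1 lower at an unadjusted p under 0.05 and none called by edgeR or DESeq2. Of all genes 4.61% were lower at that unadjusted p. Of the 6 vitellogenins 3 fell in N2 and 5 in daf-2, and their median estimate was -0.48. The yolk gene vit-2 had -1.07 ± 0.80 (adjusted p = 0.969), and it was at 6194 CPM in N2 day 11 library 2 against 1755 and 1505 CPM in the others. The long non-coding RNA tts-1 rose in both strains (log2 1.62 ± 0.42 and 1.43 ± 0.42) with a contrast of -0.19 ± 0.58.

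Of 83 sperm genes tested, 56 rose in N2 (median log2 2.83) and 74 in daf-2 (median 4.95), and the median estimate of the contrast was 1.74. None passed by edgeR or by DESeq2, while 12 were higher and 2 lower at an unadjusted p under 0.05, against 1.53% and 4.61% of all genes. The 28 msp genes summed to 102, 37.5 and 9.83 CPM in the N2 day 11 libraries and to 260, 169 and 91.6 CPM in those of daf-2. At day 4 the sums were 3.98, 11.0 and 5.17 CPM in N2 and 5.10, 3.98 and 5.11 CPM in daf-2. At day 11 the sum was higher in daf-2 than in N2 for each of the 3 library numbers, while across numbers the strains overlapped, since N2 library 1 was above daf-2 library 3.

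The contrast of day 7 minus day 1, built the same way from the other 12 libraries, gave values for the same genes that share no library with those above. It passed for 2 genes, both lower in daf-2 (0.012% of those tested), F57H12.6 (-6.19) and H39E23.3 (-8.72), which had no strain by age call between days 4 and 11 (adjusted p = 0.376 and 0.154). It passed for 0 genes when any of 6 libraries was left out (N2 day 1 library 1 or 2, N2 day 7 library 1, daf-2 day 1 library 3, daf-2 day 7 library 1 or 2), for 1 when daf-2 day 1 library 2 or daf-2 day 7 library 3 was, and for 11 when N2 day 1 library 3 was. Of the 31 genes that were lower between days 4 and 11, 26 also had an estimate below 0 here, against 46.4% of all genes. Their median was -0.78, against 0.03. At an unadjusted p under 0.05, 13 were lower, against 2.13% of all genes, and 2 were higher. These p-values are not independent of the earlier ones, since all 24 libraries gave 1 shared estimate of each gene's spread. None of the 33 passed by edgeR without the replicate block, and 3 of the 31 lower genes passed with it. DESeq2 called 4 (far-3, ifb-2, clec-60 and F53A9.6). The value for ifb-2 was -1.19 ± 0.22 (adjusted p = 0.0684), that for far-3 -3.18 ± 0.69 (adjusted p = 0.168) and that for ins-7 -2.01 ± 0.70 (adjusted p = 0.823). The 5 lower genes with an estimate above 0 here were acd-1 (1.06 ± 0.66), T16G1.4 (1.06 ± 0.49), T23E7.6 (1.80 ± 0.80), B0272.4 (0.33 ± 0.33) and C10C5.4 (0.01 ± 0.33).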

How the data were processed

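Total RNA depleted of ribosomal RNA was sequenced from whole worms, and RSEM expected counts per gene were deposited by the authors, 1 table per library. STAR (2.7.0e) and RSEM (1.3.1) are listed as tools in the submitters' processing notes, which also list ce11 beside WBcel235 as builds and give no roles. The strand setting of the counting is not given in the sources used here, so for 11 of the 33 genes that passed, reads of a gene overlapping on the other strand may be included. Expected counts were rounded to whole numbers. Of 46904 gene IDs 46817 were found in the Ensembl 115 annotation (WBcel235), which supplied symbols and positions, and the other 87 took at most 0.0075% of counts in any library of the contrast.

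All 24 libraries entered 1 model of 8 groups in edgeR 4.0.16 (R 4.3.3) with filterByExpr, TMM scaling and the quasi-likelihood F test, and p-values were adjusted over all 16698 genes by the Benjamini-Hochberg method at 0.05. The common biological coefficient of variation was 0.273. An SE is the size of the log2 change divided by the square root of F. Printed CPM use TMM-scaled library sizes. DESeq2 1.42.0 with Python 3.11.15, pandas 2.3.3 and matplotlib 3.10.9 served the alternatives and descriptions, and the fits were tested on simulated data. No 2 libraries of a group agreed within sampling noise.

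The contrast, the 62 gene lists and the named genes were chosen with earlier results of these data known. Genes were named by rule: the 10 highest and 10 lowest named coding genes that passed at 10 CPM or more, up to 5 in each direction with opposite changes in the strains, up to 3 non-coding genes in each direction, up to 4 members per list or else its member of highest mean, 3 even genes in each direction and 8 fixed genes. All 33 genes that passed were named after that count was seen, and sgk-1, pqm-1, ins-8, ins-22, lys-10, elt-2, erm-1, ges-1, F57H12.6, H39E23.3, nlt-1, F32H5.1 and tre-3 after their values were seen. The symbols vet-4, larp-7, nol-1, nol-2, nol-5, C12C8.1, daf-21, clpx-1 and hsp-10 of the lists were not matched.

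Libraries of the same number deviated together in 16 of 18 pairs at a correlation over 0.1. Every pair did so for daf-2 between ages (lowest 0.202) and for the strains at day 4 (0.311) and day 11 (0.31), but not for N2 (0.031) and hence not for the strain by age contrast. The main model still held no block for any comparison, and the block was a separate fit. Printed estimates and calls come from the model without a block unless the block is named. Other scalings, filters, tools, sample sets, the replicate block and leaving out each library were tried. A planned description of promoter motifs was not made, since sequences were not used here.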

Additional observations from a re-analysis of the deposited data

Results flagged for a closer look

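The strain by age contrast is itself a test of whether the effect of age differs between the strains, and 33 genes passed it by edgeR's quasi-likelihood test. In 6 of them the change with age also passed in both strains with opposite signs. The estimate was -4.14 for cpr-4, -3.32 for ugt-18, -3.25 for ins-10, -2.51 for E04D5.4 and -2.08 for C10C5.4, all of which rose in N2 and fell in daf-2. It was 3.61 for comt-4, which fell in N2 and rose in daf-2. The calls for ugt-18 and C10C5.4 held whichever of the 12 libraries was left out, and those for ins-10 and comt-4 held in 1 and 2 of the 12 fits.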

How the results depend on the processing

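The strain by age count of 33 between days 4 and 11 was 26 to 38 with other scalings, filters, gene sets and sample sets, 122 by DESeq2, and 76 without the libraries numbered 3. With the replicate block it was 182 (23 higher and 159 lower), and without 1 library it ranged from 4 to 36. All 33 genes were also called by DESeq2 and with the block, 21 without the libraries numbered 3, and 24 with the compared groups alone. None changed sign in these fits, and only ugt-18, C10C5.4 and B0272.4 passed in all 12 fits with 1 library left out. Of the 33 genes, 21 passed in at least 6 of those 12 fits. The numbers did not pair the samples for this contrast, although each of the 12 libraries correlated best with its own number, which is a hint from the data and not the design.

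For the change with age, N2 gave 8143 calls with the block, 7658 without the libraries numbered 3 and 3250 to 4468 without 1 library, and daf-2 gave 6287, 6133 and 2208 to 3660. The strains differed at day 4 in 502 genes by DESeq2, 823 with the block and 178 to 276 without 1 library, and at day 11 in 998, 1609 and 380 to 604, or 990 without the libraries numbered 3. The day 7 minus day 1 count of 2 was 47 by DESeq2, 5 by library size alone, 0 with the compared groups alone, 30 with the block, 4 without the libraries numbered 3 and 0 to 11 without 1 library. The causes were not tested. The median SE of the contrast was 0.43 over all genes and the smallest estimate that passed was 1.15 in size, so smaller differences between the strains were in most genes not detectable with 3 libraries a group.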

Other observations

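Several of the 33 genes lay near each other, though distances among all tested genes were not worked out for comparison. E04D5.4 and clec-60 were 37526 bases apart on chromosome II, and M176.4 and chil-22 were 42267 bases apart on the same chromosome. On chromosome V, T16G1.4 lay 54940 bases from far-3 and 117363 bases from ugt-18. Chromosome V held 11 of the 33 genes and 3464 of the genes tested, and chromosome II held 9 and 2975.

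The 12 protein genes of the mitochondrial genome had a median strain by age estimate of 0.71 with no member at an unadjusted p under 0.05, and the median was 0.24 without the libraries numbered 3. Among 51 transthyretin-related genes 25 rose in N2 and 11 in daf-2, both without the replicate block. With the block 20 rose in daf-2, a count not comparable with the 25. Over all genes the block raised the upward calls from 2912 to 4445 in N2 and from 2006 to 3303 in daf-2. In the contrast 14 of the 51 were lower at an unadjusted p under 0.05 (27.5%, against 4.61% of all genes). None of them passed by edgeR, and DESeq2 called 2.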
